A study of Mus musculus with 2 samples.

Results

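A list of 50 genes of the mitotic spindle, the kinetochore and cytokinesis was examined in endogenous CD8+ T cells. The members were named genes, taken by gene symbol, and all 50 of 50 were found among the 19505 genes with a probe set named on the array. Each of the 50 had 1 probe set. They were kept in 8 groups by role, namely kinesins, spindle checkpoint, mitotic kinases with the passenger complex, centromere and kinetochore, condensin and chromosome structure, sister chromatid release, spindle assembly, and cytokinesis.

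These genes serve the last part of the cell cycle. Chromosomes are compacted by condensin, caught at their kinetochores by spindle microtubules, held back by a checkpoint until every kinetochore is attached, pulled apart once the cohesin ring is cut, and shared between daughter cells by a contractile ring. Resting T cells transcribe most of these genes at low levels, and cells that divide after antigen or in a lymphopenic host transcribe them mainly in the G2 and M phases.

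Both groups were female C57BL/6 mice aged 6 to 8 weeks that carried B16F10 melanoma, a mouse tumor cell line (200000 cells injected into the skin on day 0). All received 300 mg/kg cyclophosphamide on day 3, then 2000000 Pmel-1 cells on day 5, which are Thy1.1 CD8+ T cells with a transgenic receptor for the melanoma antigen gp100, and 10000 IU of recombinant human IL-2 daily for 3 days. The CTXpre group had no further treatment, and the CTXpre/CD4post group was also given 200 µg of the CD4-depleting antibody GK1.5 on days 10, 17 and 24. On day 25, Thy1.1-negative CD8+ cells were sorted from inguinal lymph nodes and spleen, and RNA of 5 mice was pooled on 1 array per group. Each group is therefore n = 1 and no difference given here has a replicate check or a test. The pools hold cells of many states, so a larger share of dividing cells and more RNA per dividing cell cannot be told apart.

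Levels are log2 values after robust multi-array averaging (RMA). A positive difference, also in log2, means a higher level in CTXpre/CD4post. Genes were compared where the mean over both arrays exceeded 4.35. This background bound came from 1452 probe sets for chemosensory receptors (olfactory, taste and vomeronasal), which T cells are not known to use, and of these probe sets 4.13% were themselves at least 1.5-fold higher. Over the 12443 genes compared the median difference was 0.01, and the central 95% of differences ran from -0.62 to 0.60. Where a pair of levels is given for a gene, CTXpre stands before CTXpre/CD4post. Of the genes for CD8, on which the cells were sorted, Cd8a had a pair of 11.47 and 11.72 and Cd8b1 11.70 and 11.80, and Cd4 7.55 and 5.98.

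Many promoters of mitotic genes carry a cell cycle genes homology region (CHR), the letters TTTGAA, which the MuvB core of the DREAM complex binds through Lin54, and CCAAT boxes, which the factor NF-Y binds. Promoter windows from RefSeq (GRCm38.p6), 250 bases before to 50 bases after the gene start, were found for 43 of the 50 members. Searched on both strands, the CHR element was present in 32 of 43 member windows (74.4%) and in 18.1% of all 27025 gene windows. It lay within 50 bases of the start in 28 of 43 member windows (65.1%) against 4.92% of all windows. CCAAT was present in 32 of 43 (74.4%) against 37.9%, and both motifs in 27 of 43 (62.8%) against 7.12%. The letters TTTCCCGC or TTTGGCGC, forms of the E2F site, were in 4 of 43 (9.3%) against 1.63%. Among the 10071 compared genes with a window, the shares were 12.6% for the CHR element and 3.16% for a CHR element near the start. They were 38.8% for CCAAT, 5.53% for both motifs and 2.97% for the E2F letters. A CHR match shared a base with a CCAAT match in 1 case.

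The 80 bases just before the start are printed for the 6 members that hold both motifs entirely within them. They are also printed for Kif15, which had the largest difference of all members. For Mki67, which has a pair of CHR elements, 120 bases from further upstream are printed. Sequences run 5′ to 3′ on the gene's strand, and capitals mark CHR elements (TTTGAA or TTCAAA) and CCAAT boxes (CCAAT or ATTGG).
Kif11 (chr19:37376302-37376381, plus strand): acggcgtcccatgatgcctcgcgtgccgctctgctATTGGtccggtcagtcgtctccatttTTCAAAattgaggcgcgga
Kif22 (chr7:127042421-127042500, minus strand): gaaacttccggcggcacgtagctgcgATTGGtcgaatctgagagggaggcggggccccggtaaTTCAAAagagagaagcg
Bub3 (chr7:131560290-131560369, plus strand): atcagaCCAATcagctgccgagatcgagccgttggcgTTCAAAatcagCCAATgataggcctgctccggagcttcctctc
Cdc20 (chr4:118437344-118437423, minus strand): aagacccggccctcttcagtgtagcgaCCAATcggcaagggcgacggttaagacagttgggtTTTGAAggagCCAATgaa
Top2a (chr11:99024190-99024269, minus strand): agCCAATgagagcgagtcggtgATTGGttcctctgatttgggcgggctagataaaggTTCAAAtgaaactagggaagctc
Espl1 (chr15:102296213-102296292, plus strand): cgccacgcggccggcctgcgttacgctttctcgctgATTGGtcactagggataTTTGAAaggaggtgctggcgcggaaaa
Kif15 (chr9:122951001-122951080, plus strand): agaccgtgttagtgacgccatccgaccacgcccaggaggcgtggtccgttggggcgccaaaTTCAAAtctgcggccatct
Mki67 (chr7:135716460-135716579, minus strand): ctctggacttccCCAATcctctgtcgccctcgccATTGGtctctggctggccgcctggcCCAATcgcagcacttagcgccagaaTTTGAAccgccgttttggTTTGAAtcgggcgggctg
The CHR element lies downstream of at least 1 CCAAT box in all 7 printed stretches that have both, and the Kif15 stretch has a CHR element without a CCAAT box. A match describes letters in a window and not binding in these cells.

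**Figure D1:**
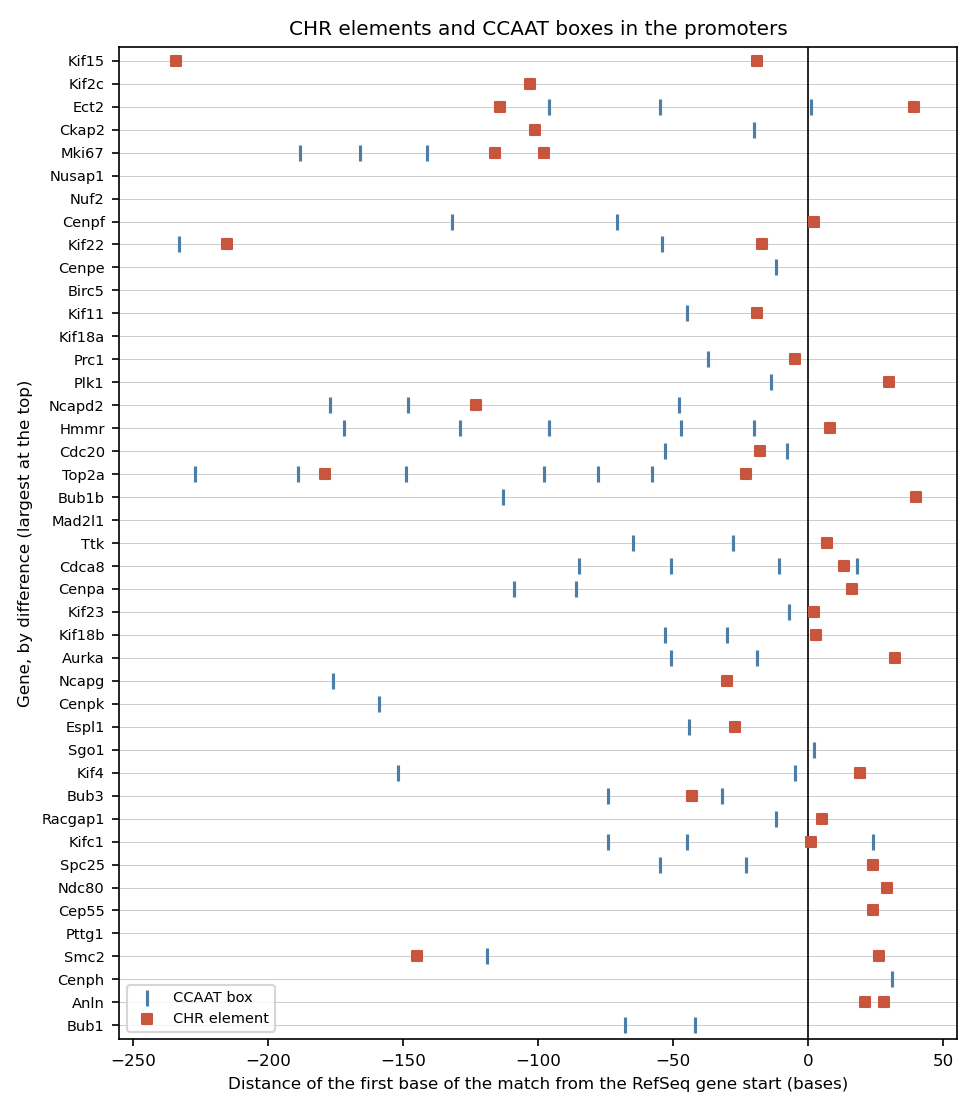
Position of CHR elements (squares) and CCAAT boxes (bars) in the promoter windows of the 43 members, on either strand. The horizontal axis is the distance in bases from the RefSeq gene start, negative before it, and genes are ordered by their difference between the arrays. CHR elements crowd around the start in genes from the top to the bottom of the order.

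Most of the listed spindle, kinetochore and cytokinesis genes had a higher level in CTXpre/CD4post, and about as many passed 1.5-fold as did not. Of the 50 members, 46 had a mean level above the background bound, and all 46 were above it on both arrays. Among these, 44 had a difference above 0, where 51.8% of all genes compared did. At least 1.5-fold higher were 23 of 46 (50%), against 2.80% of all genes compared, and at least 1.5-fold lower were 0 of 46, against 2.93%. With 32 added to the linear values before the log was taken, 10 of 46 were at least 1.5-fold higher, against 0.964% of all genes. At least 2-fold higher were 3 of 46 (Kif15, Kif2c and Ect2), against 0.506%. The median difference was 0.57, or 1.49-fold, and the differences ran from -0.23 (Smc4) to 1.38 (Kif15). The exceptions below 0 were Smc4 and Bub1. The remaining 4 members, Cenph, Cenpk, Ska1 and Anln, were not above background on either array, so no fold is given for them.

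**Figure D2:**
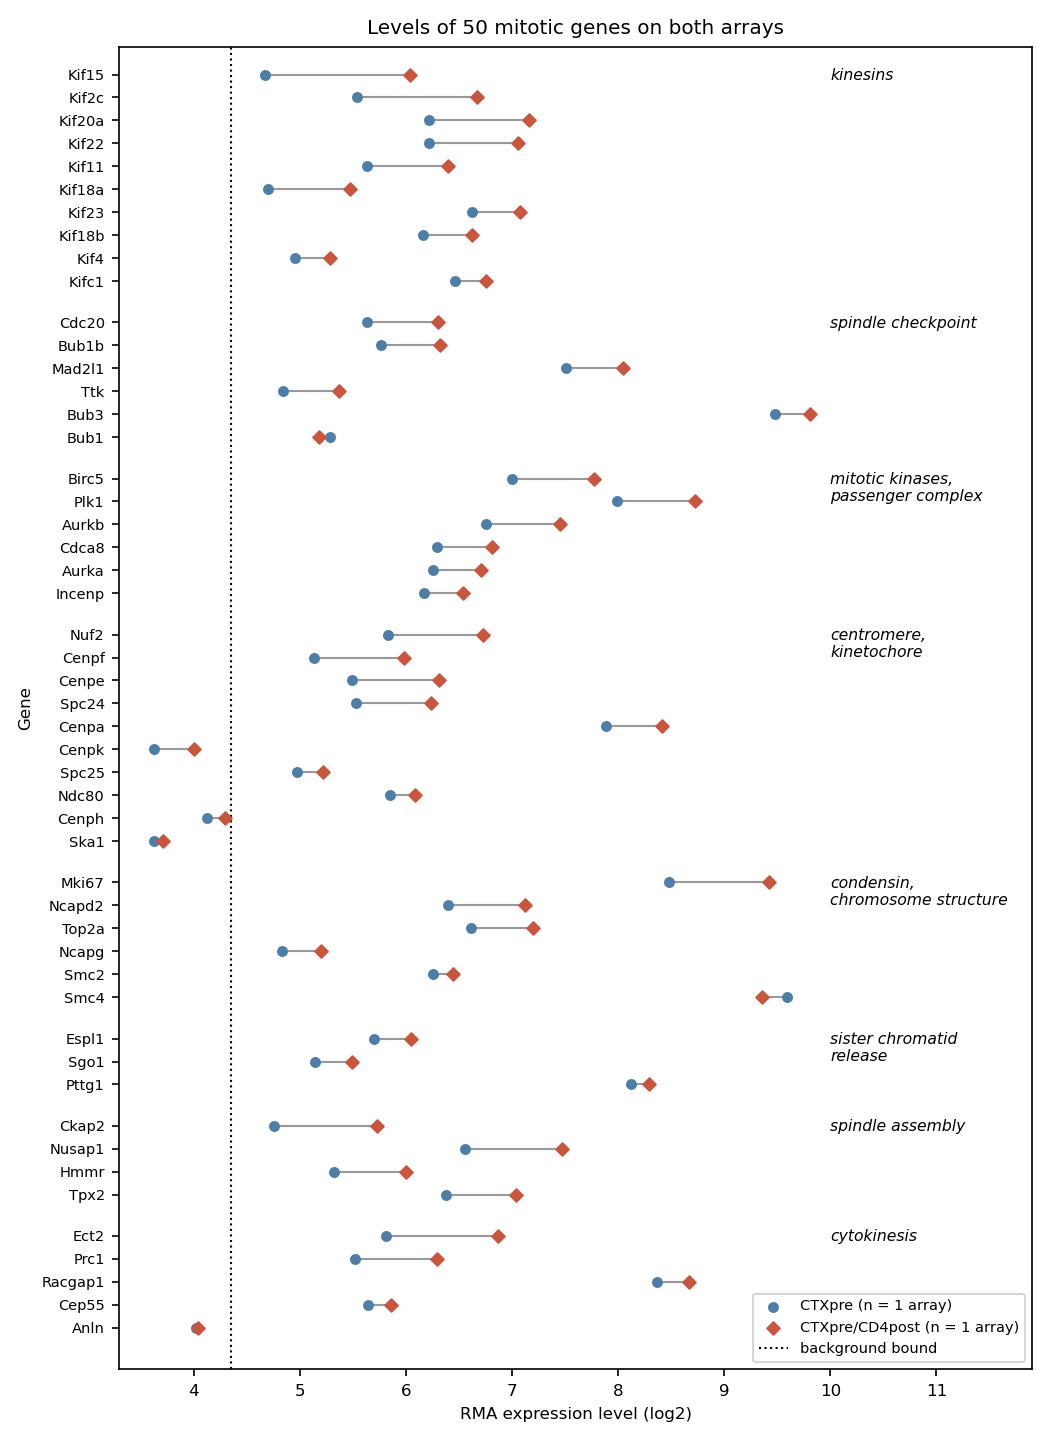
RMA expression level (log2) of each of the 50 members on the CTXpre array (circles) and the CTXpre/CD4post array (diamonds), 1 array per group, by role. The dotted line is the background bound at 4.35. The diamond lies to the right of the circle for all members except Smc4 and Bub1, and 4 members lie below the bound.

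Kinesins, motor proteins that move along or take apart microtubules, had 2 of 10 members at least 2-fold higher. The cytokinesis group had 1 of 4 compared, and the share over all genes compared was 0.506%. All 10 kinesins had a difference above 0, 6 of 10 were at least 1.5-fold higher, and their median difference was 0.77. Kif15, which helps to keep the spindle bipolar, stood at 4.67 and 6.04, a 2.60-fold higher value. Its CTXpre level lay close to the background bound of 4.35. Kif11, the motor that pushes spindle poles apart, stood at 5.63 and 6.40, or 1.70-fold. Kif2c, which depolymerises microtubules at wrongly attached centromeres, stood at 5.54 and 6.67, or 2.19-fold. Of the motors for spindle polarity and attachment, the CTXpre/CD4post array was the higher for each of these 3.

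Kif20a, which carries the chromosomal passenger complex to the central spindle, had levels of 6.22 and 7.16, or 1.92-fold. Kif22, a chromosome-bound kinesin that pushes chromosome arms outward, had levels of 6.22 and 7.06, or 1.80-fold. Kif18a, which dampens the movements of aligned chromosomes, had levels of 4.70 and 5.47, or 1.70-fold. Its CTXpre level, like that of Kif15, lay close to the background bound. The other 4 kinesins stayed within 1.5-fold. They were Kif18b and Kif23, each with a difference of 0.46, Kif4 (0.33) and the minus-end motor Kifc1 (0.30). Kinesins of interphase transport, which carry cargo in resting and cycling cells alike, gave a reference. Their list also held Klc1 and Klc4, the genes of kinesin light chains, which are not motors. Of 12 compared, 6 had a difference above 0 and 0 reached 1.5-fold in either direction. Of all genes compared, 2.80% were at least 1.5-fold higher and 2.93% lower. The median was -0.05, between Kif3c (-0.22) and Kif13b (0.32). Kif1a, Kif5a, Kif5c and Kif13b lay close to the background bound of 4.35.

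Spindle checkpoint genes mostly stayed within 1.5-fold. Of 6 members, 5 had a difference above 0 and 1 was at least 1.5-fold higher, with a median of 0.54. Cdc20, the activator of the anaphase promoting complex that the checkpoint holds inactive, had levels of 5.63 and 6.30, or 1.59-fold. Bub1b, which encodes the inhibitor BubR1, stood at 5.77 and 6.32, and Mad2l1, which encodes its partner Mad2, at 7.51 and 8.05. The kinase Ttk, which starts the signal at unattached kinetochores, stood at 4.84 and 5.37. Each of these 3 lay just under 1.5-fold. Bub3, which brings Bub1 and BubR1 to kinetochores, had levels of 9.48 and 9.81. The kinase gene Bub1 itself had levels of 5.29 and 5.18, a difference of -0.11, so the genes for 2 proteins of related structure, Bub1 and Bub1b, lay on either side of 0.

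Of the 6 genes of mitotic kinases and the chromosomal passenger complex, 3 were at least 1.5-fold higher. All 6 had a difference above 0, with a median of 0.60. Plk1, a kinase that acts from mitotic entry to cytokinesis, had levels of 7.99 and 8.72, or 1.66-fold. The passenger complex joins the kinase Aurora B to survivin, borealin and the scaffold INCENP. Of its subunits, Birc5 (survivin) had levels of 7.0 and 7.77, Aurkb 6.76 and 7.45, Cdca8 (borealin) 6.29 and 6.81 and Incenp 6.17 and 6.54. These are 1.70-, 1.61-, 1.44- and 1.29-fold, so Birc5 and Aurkb were past 1.5-fold and Cdca8 and Incenp were not. Aurka, the kinase of the spindle poles, had levels of 6.26 and 6.71.

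Centromere and kinetochore genes had 7 of 10 members above background, all with a difference above 0. At least 1.5-fold higher were 4 of 7, with a median of 0.71. The NDC80 complex, the microtubule-binding rod of the kinetochore, is built from equal numbers of 4 subunits, and their genes differed unequally. Nuf2 had levels of 5.83 and 6.73, or 1.87-fold, and Spc24 5.53 and 6.24, or 1.64-fold. Ndc80 had levels of 5.85 and 6.09 and Spc25 4.97 and 5.22, differences of 0.24 and 0.25. Nuf2 and Ndc80 proteins form a dimer, as do Spc24 and Spc25, so in each pair 1 gene was past 1.5-fold and the other was not.

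Cenpe, a kinesin-like motor of the kinetochore, had levels of 5.49 and 6.31, or 1.77-fold, and Cenpf, a large protein of the outer kinetochore, 5.13 and 5.98, or 1.80-fold. Cenpa, the histone H3 variant that marks the centromere, had levels of 7.89 and 8.41, or 1.44-fold. The inner kinetochore genes Cenph (4.13 and 4.30) and Cenpk (3.63 and 4.0), and Ska1 (3.63 and 3.71), whose protein helps kinetochores to track microtubule ends, were not above background. Cenpa was thus the only inner kinetochore member with a level above background.

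All condensin and chromosome structure genes but Smc4 had a higher level in CTXpre/CD4post. Of 6 members, 5 had a difference above 0 and 3 were at least 1.5-fold higher, with a median of 0.48. Mki67, the Ki-67 antigen that coats mitotic chromosomes, had levels of 8.48 and 9.42, or 1.92-fold. Ncapd2, a regulatory subunit of condensin I, had levels of 6.40 and 7.12, or 1.65-fold, and Ncapg, another, 4.83 and 5.20, or 1.30-fold. The ATPase subunits shared by both condensins went less far, with Smc2 at 6.26 and 6.44 and Smc4 at 9.59 and 9.36. Smc4 had the lowest difference of all members (-0.23). Top2a, the enzyme that untangles sister DNA, had levels of 6.61 and 7.20, a difference of 0.59 that lay just past 1.5-fold. Sister chromatid release genes had small differences, and none of 3 reached 1.5-fold, with a median of 0.35. Espl1, the protease separase that cuts cohesin, had levels of 5.70 and 6.05, its inhibitor securin (Pttg1) 8.12 and 8.29, and the cohesin protector Sgo1 5.14 and 5.49.

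Spindle assembly genes were the group in which every member passed 1.5-fold. All 4 did, with a median of 0.80. Ckap2, a microtubule stabiliser, had levels of 4.76 and 5.73, or 1.96-fold, with the CTXpre level close to the background bound of 4.35. Nusap1, which bundles microtubules near chromosomes, had levels of 6.56 and 7.47, or 1.89-fold. Hmmr, a spindle pole protein, had levels of 5.32 and 6.00, or 1.61-fold, and Tpx2, the activator of Aurora A, 6.38 and 7.04, or 1.58-fold. Aurka, the partner of Tpx2, was 1.36-fold higher.

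Cytokinesis genes had 4 of 5 members above background. All 4 had a difference above 0 and 2 were at least 1.5-fold higher, with a median of 0.53. Ect2, the exchange factor that switches on RhoA for the contractile ring, had levels of 5.81 and 6.87, or 2.09-fold. Prc1, which crosslinks the microtubules of the central spindle, had levels of 5.52 and 6.29, or 1.69-fold. Racgap1, which forms the centralspindlin complex with Kif23 and recruits Ect2, had levels of 8.37 and 8.67, a difference of 0.30 beside 0.46 for Kif23. Cep55, the midbody protein of the final cut, had levels of 5.64 and 5.86. The ring scaffold Anln (4.02 and 4.04) was not above background. Within this group the exchange factor and the microtubule crosslinker were past 1.5-fold, and neither subunit of centralspindlin was.

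**Figure D3:**
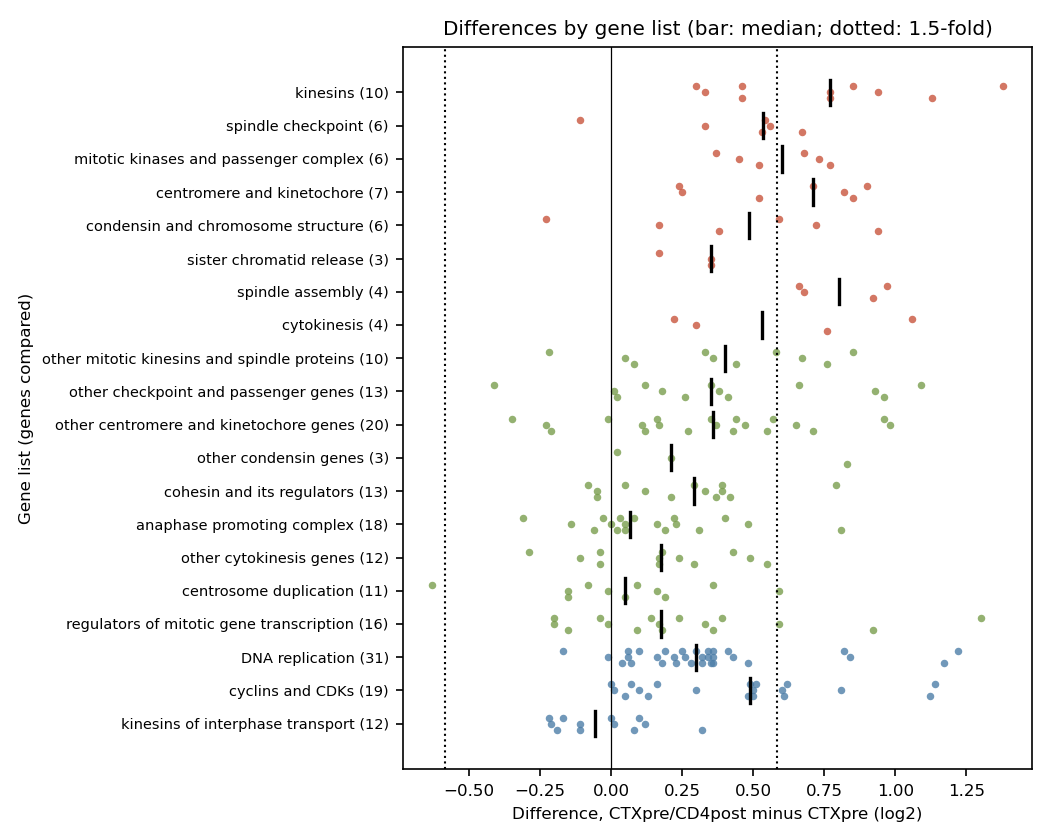
Difference between the arrays (log2, CTXpre/CD4post minus CTXpre) for each gene compared, by list, with 1 point per gene, the median as a bar and dotted lines at 1.5-fold. The 8 groups of members (top) have medians from 0.35 to 0.80, and the kinesins of interphase transport (bottom) have a median of -0.05.

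A wider list of 127 other genes of mitosis, centrosome duplication and mitotic gene control held 122 with a probe set, of which 116 were compared. At least 1.5-fold higher were 18 of 116 (15.5%), against 2.80% of all genes compared. At least 1.5-fold lower was 1, against 2.93%, and the median was 0.19. A difference above 0 was found for 88 of 116, against 51.8% of all genes compared. At least 1.5-fold higher were 4 of 13 other checkpoint and passenger genes, 3 of 10 other kinesins and spindle proteins, 4 of 20 other centromere and kinetochore genes and 1 of 3 other condensin genes. Nek2, a kinase that separates centrosomes, had levels of 5.21 and 6.31, or 2.13-fold, and Kntc1, part of the kinetochore corona, 5.02 and 5.98, or 1.95-fold. Knl1, the kinetochore scaffold for Bub1, had levels of 5.14 and 6.12, or 1.97-fold. Ska3, a partner of Ska1, had levels of 4.19, not above background, and 5.15, at least 1.74-fold higher. Aspm, a spindle pole protein, and Dlgap5, which stabilises spindle microtubules, were 1.80-fold and 1.69-fold higher.

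Core subunits of the anaphase promoting complex, which also acts in G1, differed little. Of 14, 0 reached 1.5-fold, with a median of 0.04. The activator Fzr1 had a difference of 0.48. Ube2c, the mitotic ubiquitin-conjugating enzyme of the complex, had levels of 7.56 and 8.38, or 1.76-fold. The other listed partners of the complex, Ube2s and Fbxo5, had differences of 0.19 and 0.05. Of the 5 cohesin core subunits 0 reached 1.5-fold, with a median of 0.21. The cohesin regulator Pds5b had a difference of 0.42. Cdca5 (sororin), which locks cohesin on replicated DNA, had levels of 6.09 and 6.88, or 1.73-fold. The other listed cohesin regulators had differences from -0.05 (Nipbl and Esco1) to 0.39 (Sgo2a). These divisions into core subunits and partners were made after the values were seen. Fzr1, Ube2c, Pds5b and Cdca5 were named as the most different genes of their lists. The condensin I subunit Ncaph had levels of 5.74 and 6.56, or 1.77-fold, and Ncapd3 of condensin II 8.07 and 8.28. Among centrosome duplication genes, with a median of 0.05 over 11, Stil was 1.51-fold higher and Cenpj had levels of 5.36 and 4.73, a difference of -0.63. The CTXpre level of Stil (4.46) lay close to the background bound. Of the other cytokinesis genes, 0 of 12 reached 1.5-fold, and the highest were Arhgef39 (0.55) and the kinase gene Cit (0.49). Over all genes compared, 2.80% were at least 1.5-fold higher and 2.93% lower. Counts of 0 in lists this short therefore say little by themselves.

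Regulators of mitotic gene transcription had a lower median difference than the members. Of 16 compared, 3 were at least 1.5-fold higher and 0 lower, with a median of 0.17. The shares over all genes compared were 2.80% and 2.93%. E2f2, an activator E2F, had levels of 6.97 and 8.27, or 2.46-fold, E2f8, a repressor E2F, 5.95 and 6.87, or 1.90-fold, and Mybl2 (B-Myb), which joins MuvB to switch on mitotic genes, 5.61 and 6.20, or 1.51-fold. The other E2F genes of the list stayed within 1.5-fold, namely E2f1 (0.36), E2f3 (0.39), E2f4 (0.18) and E2f7 (0.33). Foxm1 was not analysed here. CHR elements are bound by MuvB and CCAAT boxes by NF-Y. The listed MuvB genes Lin9, Lin37, Lin52 and Lin54 and NF-Y genes Nfya, Nfyb and Nfyc had differences from -0.20 (Nfyc and Lin54) to 0.24 (Lin9). They were named after their values were seen.

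Members with a CHR element did not stand above those without it. Over 31 compared members with the element the median difference was 0.53, with 14 at least 1.5-fold higher, and over 9 without it the median was 0.77, with 5 at least 1.5-fold higher. For CCAAT boxes the medians were 0.53 over 30 members with a box and 0.77 over 10 without. For the E2F site the order was the opposite, with 0.75 over 4 members with it (3 at least 1.5-fold higher) and 0.54 over 36 without (16 at least 1.5-fold higher). Members with a lower mean level had slightly larger differences, with a median of 0.68 and 13 of 23 past 1.5-fold, against 0.52 and 10 of 23 for those with a higher mean level.

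Other parts of the cell cycle had medians between that of the 46 members (0.57) and that of the 116 other mitotic genes (0.19), and with n = 1 per group the difference between lists was not tested. DNA replication genes had a median of 0.30, with 4 of 31 at least 1.5-fold higher, between Rfc5 (-0.17), a clamp loader subunit, and Rrm2 (1.22), a subunit of ribonucleotide reductase. Cyclins, CDKs and their regulators had a median of 0.49, with 6 of 19 at least 1.5-fold higher, between the inhibitory kinase Pkmyt1 (0.00) and the cyclin Ccna2 (1.14). The share at least 1.5-fold higher over all genes compared was 2.80%.

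**Figure D4:**
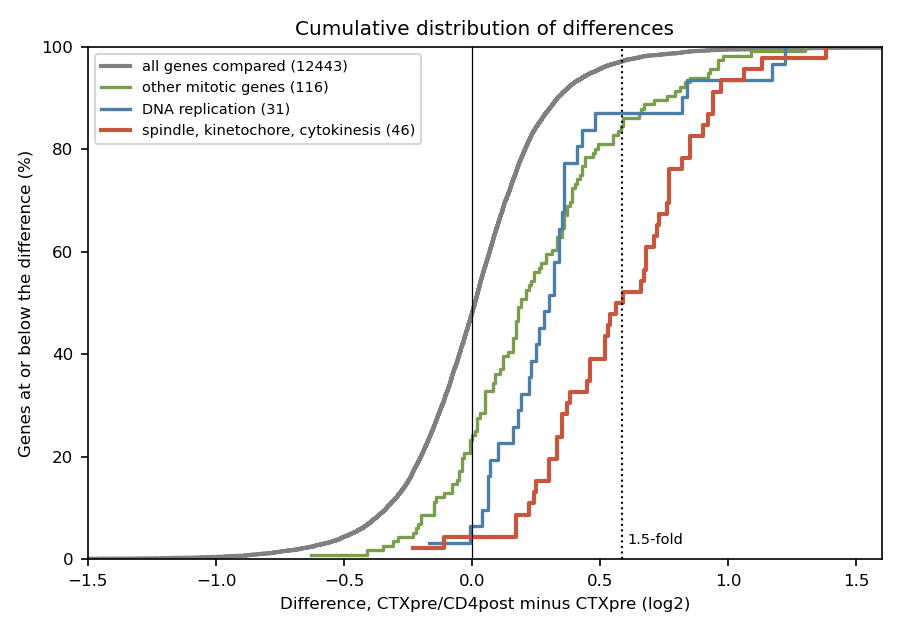
Cumulative share (%) of genes at or below each difference (log2, CTXpre/CD4post minus CTXpre), for all 12443 genes compared, 116 other mitotic genes, 31 DNA replication genes and the 46 members compared. The horizontal axis is cut at both ends, and the curve of the members lies to the right of the others through most of its range, with 50% of members past the dotted line at 1.5-fold.

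Most markers of other cells that a CD8 gate could hold, some of which also divide, had lower levels in CTXpre/CD4post. Germinal centre B-cell markers had a median difference of -0.47 over 4 of 6 measured, with 2 of 4 at least 1.5-fold lower, and their median level was 6.45 and 5.90. B-cell markers had a median of -0.41 over 10 (3 lower), dendritic-cell markers -0.64 over 11 (6 lower), myeloid markers -0.48 over 10 (4 lower), MHC class II genes -0.78 over 7 (6 lower), NK markers -0.37 over 5 (2 lower) and erythroid markers -0.22 over 5 (1 lower). None of these 7 lists had a gene at least 1.5-fold higher. Over all genes compared, the shares past 1.5-fold were 2.80% (higher) and 2.93% (lower). A share of 2.80% gives few or no genes in lists this short, so the absence of higher genes says little by itself. Plasma cell markers had a median of 0.16 over 5, with 1 lower and 0 higher, and 3 more were not above the bound. They ran from Jchain (-2.17), the lowest difference of all genes compared, to Prdm1 (0.34). CD4 and regulatory T-cell markers had a median of 0.29 over 6, with 2 lower and 1 higher, between Cd4 (-1.57) and Cd40lg (1.81). CD8 T-cell markers had a median of 0.18 over 9, between -0.01 and 0.38, and 0 of 9 reached 1.5-fold. The part of cell composition in the differences of the mitotic genes was not tested.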

How the data were processed

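Total RNA of sorted cells, pooled from 5 mice per group, had been hybridised to Affymetrix Clariom S mouse arrays. The deposited values are log2 levels that the authors made by robust multi-array averaging in Affymetrix Power Tools, which quantile-normalizes the arrays, so a global shift in RNA cannot be seen. For the array values, the sources used here give no software versions or genome build, and the number of arrays limits the precision. Of 22206 probe sets, 19572 had 1 gene symbol from the platform annotation and 2634 are unnamed here. Where a gene had several probe sets, that with the highest mean of both arrays was used (55 genes). The bound on each array was the 95th percentile of chemosensory receptor probe sets (4.35 and 4.36). Genes were called by size, 1.5-fold, with no test. Where 1 array was below its bound, the brighter level was set against the bound ("at least N-fold").

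The members and lists were chosen with earlier results of these data known. Any member could be named. Of other mitotic lists the rule named the most different pair of genes of each list, with Mybl2, Foxm1 and 6 E2F genes, and of comparison lists the extremes. The MuvB and NF-Y genes fall outside it, as do Ube2s, Fbxo5, Nipbl, Esco1 and Sgo2a. Promoters were from RefSeq, the first window listed for each gene. Python 3.11.15, pandas 2.3.3 and statsmodels 0.14.6 were used.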

Additional observations from a re-analysis of the deposited data

How the results depend on the processing

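Recomputed were the counts of members at least 1.5-fold higher and lower and their median difference. The count of other mitotic genes at least 1.5-fold higher was recomputed too. The settings were differences centred, arrays quantile-normalized again, a lowess trend removed (fraction 0.3), 32 added to the linear values, and other filters, bounds and probe set rules. For the counts, thresholds of a 0.32 log2 difference and of 2-fold were also used. Group medians were recomputed only with centring, renormalization, the lowess trend removed, 32 added and no filter. Values of the single other lists, the markers and the motif splits were not recomputed. Among 83 recomputed values no median changed sign, and a count could not change direction. At 1.5-fold, 0 members were lower under any setting. The probe set rules could not alter the member values, as each member had 1 probe set. Nor could a filter on 1 array, as the 46 members compared were above the bound on both arrays and the others on neither. With 32 added, a step that pulls dim probe sets towards 0, there were 10 members and 5 other mitotic genes at least 1.5-fold higher (0.964% of all genes compared), and a median of 0.43 for the members. Under the remaining settings this median lay between 0.54 and 0.66. At 2-fold 3 members and 2 other mitotic genes were higher, and at 0.32 37 and 46 (10.7% of all genes compared). Group medians moved by over 0.1 in 10 of 40 values, to between 0.19 and 0.52, under the addition of 32 or with no filter on low levels. With 1 array per group, no array could be left out. No detection calls were used, so the bound limits what can be said of Cenph, Cenpk, Ska1 and Anln.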
